A study of Rattus norvegicus with 6 samples.

Results

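Hyaluronan is a long unbranched sugar chain of the extracellular matrix, and 10 genes that make, cut or bind it (Has1, Has2, Has3, Hyal1, Hyal2, Cemip, Cd44, Hmmr, Lyve1 and Tnfaip6) were followed in regenerated rat sciatic nerve. They were taken by symbol from a table of 23091 genes, where 9 of the 10 had a row, and the level of Lyve1 was not analysed here. All tissue came from wild-type male Sprague-Dawley rats with a sciatic nerve defect. In the control group, called NC (3 libraries), the wound was closed with no implant and no other treatment. In the treated group (3 libraries, named implant 1 to implant 3 here) the defect received the conduit GDNF-Gel/HA-Mg, which is named for glial cell line-derived neurotrophic factor. The labels do not spell out the letters HA, do not give the time after surgery and do not say whether each library came from a separate animal. The p-values therefore measure the spread between these libraries, which may be technical.

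Hyaluronan is spun out through the plasma membrane by the synthases Has1, Has2 and Has3 from the sugar nucleotides UDP-glucuronic acid and UDP-N-acetylglucosamine. It is cut by the hyaluronidases Hyal2 at the cell surface and Hyal1 in lysosomes, and its breakdown outside the cell depends on Cemip. Cells sense it through receptors such as Cd44, while the secreted protein Tnfaip6 (also called TSG-6) couples it to the heavy chains of inter-alpha-inhibitor in inflamed and remodelling tissue. In peripheral nerve, hyaluronan lies in the endoneurial and perineurial matrix.

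No hyaluronan gene was shown to differ between the groups beyond the spread of the libraries. Levels are given as CPM (counts relative to the size of the library, with that size corrected by the trimmed mean of M-values, TMM). In edgeR's quasi-likelihood test with Benjamini-Hochberg adjustment over 13999 genes, 0 of 9 members passed an adjusted p of 0.05, against a background of 0% of all genes. At an unadjusted p under 0.05 there were also 0 of 9 members (background 1.72%), and DESeq2 and limma-voom each called 0 of 9 (backgrounds 0.0786% and 0%). For 0 of 9 members did the groups separate without overlap, against 5.69% of all genes. The log2 fold change was positive with the conduit for 4 members and negative for 5, with a median of -0.40, while the median over all genes was -0.01. Without NC 3 it was positive for 7 and negative for 2, with a median of 0.14, while the median over all genes was -0.02. In bulk tissue, fewer cells of a type and less RNA per cell cannot be told apart.

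Single libraries differed widely, and NC 3 stood apart. Haemoglobin transcripts took 25.2% of the counts in NC 3, against 1.19% and 1.02% in NC 1 and NC 2. In the implant libraries they took 8.08% to 14.8%, so without NC 3 the groups did not overlap in this share. The TMM factor of NC 3 was 0.769, against 0.963 to 1.17 elsewhere, and total counts ran from 15897844 to 18491375. Log2 fold changes are given with and without NC 3 for the genes below whose direction it set and for several others that it moved. Fits without NC 3 compare groups that differ in haemoglobin share and are not given as better estimates.

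The promoters of 3 members are shown to set a shared order beside a different order. Has1 and Tnfaip6 had the same order over the 6 libraries, and Hmmr, chosen for contrast, had another. Each window runs from 250 bases before to 50 bases after a transcription start in RefSeq (build GRCr8), 5′ to 3′ on the strand of the gene, and 8 of the 10 members matched an entry. The windows are chr1:67378395-67378694 (minus strand) for Has1, chr3:56911148-56911447 (plus strand) for Tnfaip6 and chr10:25665166-25665465 (minus strand) for Hmmr. Capitals mark matches, on either strand, to 5 motifs: the cyclic AMP response element TGACGTCA, the AP-1 site TGANTCA, the cell cycle homology region TTTGAA, the CCAAT box CCAAT and the TATA box TATAAA. These motifs were chosen after the windows had been read.
Has1: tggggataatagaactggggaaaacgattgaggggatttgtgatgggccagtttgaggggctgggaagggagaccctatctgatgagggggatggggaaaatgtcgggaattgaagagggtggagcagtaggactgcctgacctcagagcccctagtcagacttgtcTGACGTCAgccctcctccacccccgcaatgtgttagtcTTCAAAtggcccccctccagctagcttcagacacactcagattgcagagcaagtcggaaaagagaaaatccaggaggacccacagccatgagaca
Tnfaip6: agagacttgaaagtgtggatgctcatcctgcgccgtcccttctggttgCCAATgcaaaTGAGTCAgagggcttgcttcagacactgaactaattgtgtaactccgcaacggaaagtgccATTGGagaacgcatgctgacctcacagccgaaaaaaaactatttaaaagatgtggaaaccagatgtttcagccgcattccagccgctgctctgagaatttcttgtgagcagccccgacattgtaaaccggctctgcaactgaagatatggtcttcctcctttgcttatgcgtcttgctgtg
Hmmr: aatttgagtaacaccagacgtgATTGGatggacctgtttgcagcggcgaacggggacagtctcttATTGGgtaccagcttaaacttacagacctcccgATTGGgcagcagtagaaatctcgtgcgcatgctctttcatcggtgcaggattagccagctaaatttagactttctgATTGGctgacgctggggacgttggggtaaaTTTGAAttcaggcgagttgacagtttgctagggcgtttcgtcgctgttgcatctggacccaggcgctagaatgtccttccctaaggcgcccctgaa

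The Has1 window holds TGACGTCA, which begins 83 bases before the start and is found in 1.83% of 33469 promoters, and a match to TTTGAA on the opposite strand. The Tnfaip6 window holds a match to TGANTCA that begins 192 bases before the start (7.33% of promoters), and 2 CCAAT boxes. The Hmmr window holds 4 CCAAT boxes, all on the opposite strand, and TTTGAA beginning 46 bases before the start. A promoter with at least 4 CCAAT boxes was found in 0.675% of all cases, and with TTTGAA as well in 0.12%. This threshold and this combination were taken from the Hmmr window itself, so these shares only describe it. Alone, TTTGAA was in 18.4% of promoters and CCAAT in 37.5%, and in 3 and 4 of the 8 member promoters. These 8 include Lyve1, which holds CCAAT, and leave out Has2 and Has3, which matched no entry. The windows of Has1 and Tnfaip6, the 2 genes with the same order, had none of the 5 motifs in common. Since the motifs were chosen after reading, this absence depends on that choice, and other shared stretches were not sought. A match describes letters and is not evidence of binding.

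Among the synthases, Has1 (ENSRNOG00000010994) set the widest contrast between libraries. Its levels in NC 1, NC 2 and NC 3 were 1.71, 1.44 and 17.6 CPM, from 33, 25 and 243 counts. In implant 1, implant 2 and implant 3 the levels were 3.57, 3.42 and 1.00 CPM, from 61, 63 and 17 counts. NC 3 alone was high, at 7.87 times the mean of the other 5 libraries, and the other NC libraries lay between implant 3 and the other implant libraries. The exact 95% Poisson interval of NC 3, 15.4 to 19.9 CPM, covers counting error only and lay far above all others, of which the highest upper bound was 4.59 CPM. Has1 spanned 17.5-fold over the 6 libraries, where the median span of 1054 genes of like level was 2.68-fold. The NC mean was 6.91 ± 9.23 CPM and the treated mean 2.67 ± 1.44 CPM (SD, n = 3 each). The log2 fold change was -1.36 ± 1.09 (SE; edgeR adjusted p = 1.00), and without NC 3 it was 0.75 ± 0.63 (adjusted p = 1.00), so its direction rested on that library.

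Has2 (ENSRNOG00000004854), the synthase needed for heart development in the embryo, followed the same libraries with a smaller swing. Across the NC libraries it read 11.9, 14.6 and 28.0 CPM, and across the treated ones 16.8, 15.5 and 8.96 CPM. NC 3 was again highest and implant 3 lowest, and 4 libraries lay between 11.9 and 16.8 CPM. The NC mean was 18.2 ± 8.64 CPM and the treated mean 13.7 ± 4.20 CPM (SD, n = 3 each). The log2 fold change of -0.40 ± 0.40 (edgeR adjusted p = 1.00) became 0.05 ± 0.30 without NC 3. Its 95% interval with all libraries ran from a fold of 0.388 to 1.48.

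Has3 (ENSRNOG00000059362) was measured from few counts and did not follow the other synthases. The NC libraries gave 0.883, 2.25 and 1.59 CPM (17, 39 and 22 counts) and the treated libraries 1.35, 1.41 and 2.06 CPM (23, 26 and 35 counts). NC 2 and implant 3 were highest and NC 1 lowest. The counting intervals of NC 1 (0.514 to 1.41 CPM) and NC 2 (1.60 to 3.08 CPM) did not overlap. Implant 3 (1.44 to 2.87 CPM) also lay above NC 1, while the intervals of the other 3 libraries overlapped all of these. The means of 1.58 ± 0.69 and 1.61 ± 0.40 CPM were close, and the log2 fold change was 0.03 ± 0.45, with a 95% interval of -1.07 to 1.13 that leaves a change of either sign possible.

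**Figure D1:**
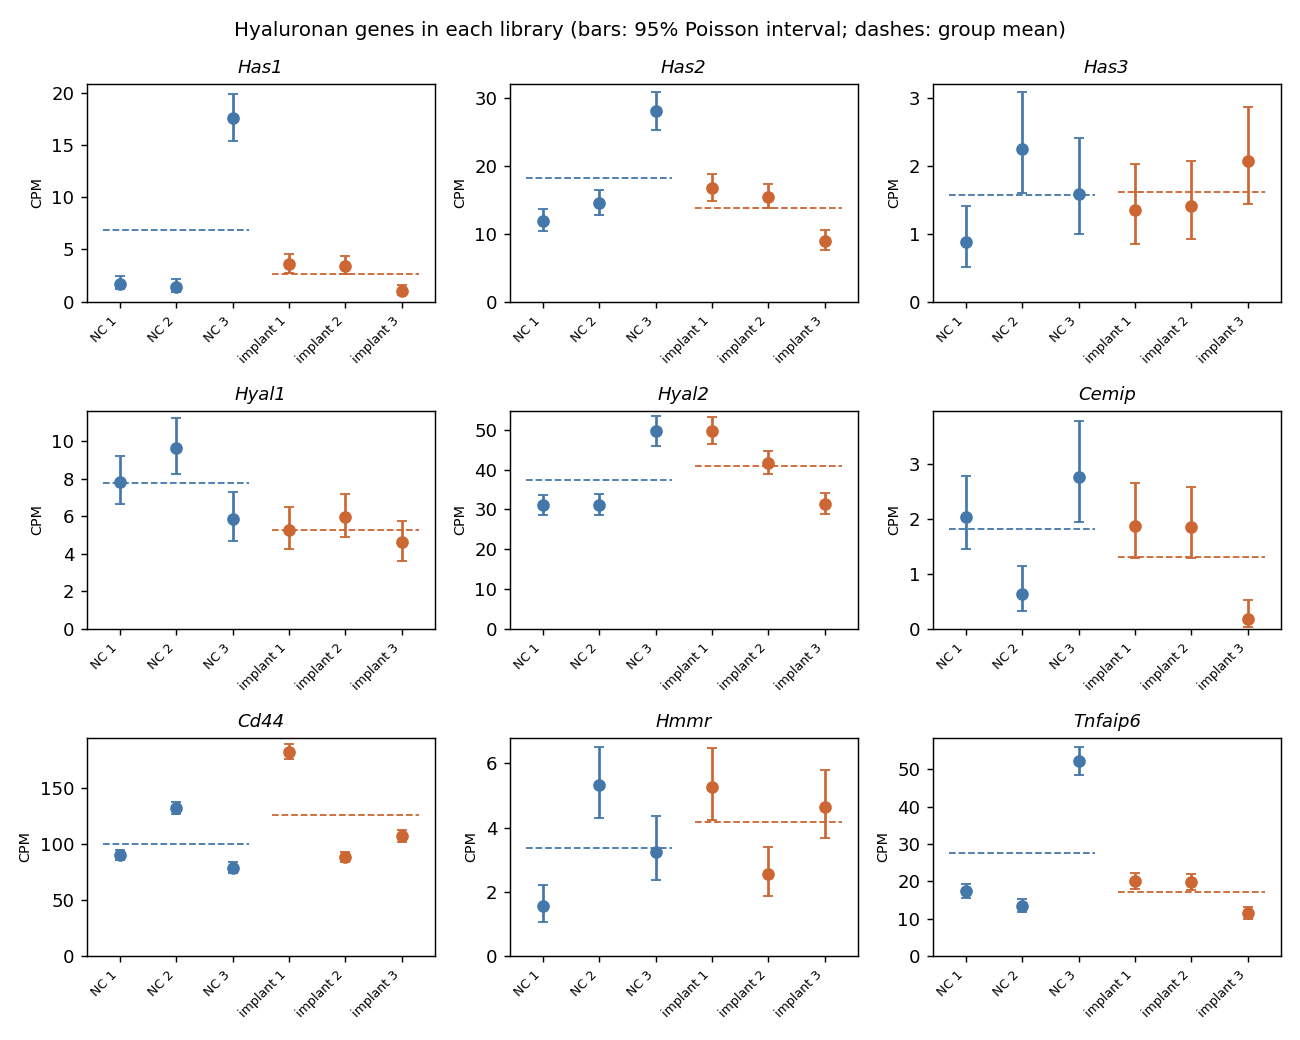
Level of each hyaluronan gene in CPM (vertical axis, from 0) in the 3 NC libraries (blue) and the 3 implant libraries (orange). Points are libraries, bars are 95% Poisson intervals for counting error, and dashes are group means; NC 3 is far above the rest for Has1 (17.6 CPM) and Tnfaip6 (52.1 CPM), and the groups overlap in every panel.

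The make-up of the synthase counts set NC 3 apart from the other libraries. Shares of counts depend on transcript length, so they are compared for each gene across libraries and not between genes. Has1 held 11.8%, 7.91% and 37.2% of the summed Has1, Has2 and Has3 counts in NC 1, NC 2 and NC 3. The treated libraries gave 16.4%, 16.8% and 8.33%. Its exact 95% Clopper-Pearson interval in NC 3 was 33.5% to 41.0%, clear of the highest bound elsewhere (21.0% in implant 2). The Has3 share was highest in implant 3 at 17.2% and in NC 2 at 12.3%, and lowest in NC 3 at 3.37%. The Has2 share was 59.4% in NC 3 and between 74.5% and 82.1% in the other 5 libraries. Its mean was 73.8 ± 12.5% in NC (80.9% without NC 3) and 76.0 ± 1.43% with the conduit (SD, n = 3 each). No test was made on these shares, which combine several members.

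**Figure D2:**
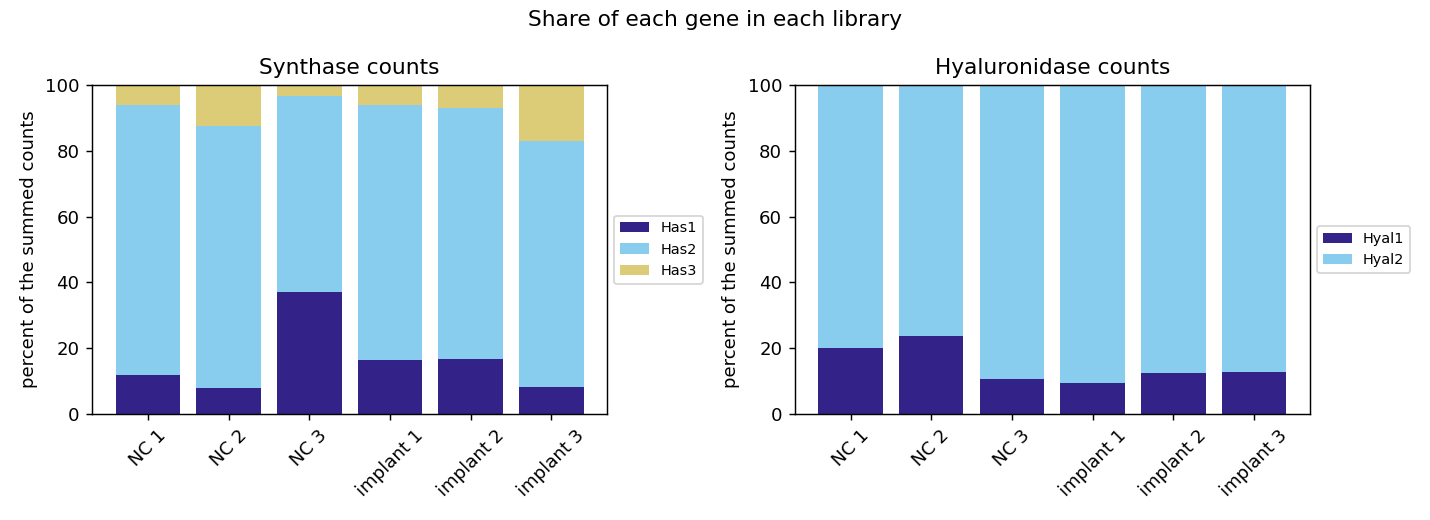
Share of each gene, in percent, of the summed synthase counts (left) and of the summed Hyal1 and Hyal2 counts (right) in each library. Has1 takes 37.2% of the synthase counts in NC 3 and at most 16.8% elsewhere; Hyal1 takes 20.2% and 23.6% in NC 1 and NC 2 and 9.56% to 12.8% in the other 4 libraries.

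Of the enzymes of breakdown, Hyal1 (ENSRNOG00000015858) came closest to a group difference. This lysosomal hyaluronidase read 7.84, 9.65 and 5.86 CPM across the NC libraries, against 5.27, 5.98 and 4.60 CPM across the treated ones. NC 1 and NC 2 were above all implant libraries, while NC 3 lay inside their range. The means were 7.78 ± 1.90 and 5.28 ± 0.69 CPM (SD, n = 3 each), a log2 fold change of -0.56 ± 0.25 with a 95% interval of -1.17 to 0.05. The unadjusted p was 0.0654 and the edgeR adjusted p = 1.00. Hyal1 was the only member whose log2 fold change kept its sign in all 6 fits that left out 1 library (-0.73 to -0.38). Without NC 3 it was -0.73 ± 0.22 (unadjusted p 0.0196, adjusted p = 1.00). In that fit 559 of 14252 genes had an unadjusted p under 0.05. With haemoglobin level as a covariate the log2 fold change of Hyal1 was -0.29 ± 0.23 (edgeR unadjusted p 0.266). Its deposited counts are not whole, and in RefSeq the gene overlaps Hyal3 and Naa80, so reads of these genes may have been divided between them and the level of Hyal1 is uncertain.

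Hyal2 (ENSRNOG00000031420), the hyaluronidase anchored at the cell surface, had the smallest span of the members, 1.60-fold. It read 31.0, 31.2 and 49.7 CPM across the NC libraries, against 49.8, 41.7 and 31.4 CPM across the treated ones. Each group held both low and high libraries, and NC 3 and implant 1 were nearly equal. The means were 37.3 ± 10.7 and 41.0 ± 9.24 CPM, with a log2 fold change of 0.14 ± 0.26 (edgeR adjusted p = 1.00), or 0.39 ± 0.21 without NC 3. Its 95% interval reached from a fold of 0.709 to 1.70. Of the summed Hyal1 and Hyal2 counts, Hyal1 held 20.2%, 23.6% and 10.5% in NC and 9.56%, 12.5% and 12.8% with the conduit. Hyal3, with 583 to 1255 counts per library, was not part of this sum.

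Cemip (ENSRNOG00000012442), which is needed for hyaluronan breakdown by fibroblasts, was low and uneven. The NC libraries held 39, 11 and 38 counts of it, or 2.02, 0.636 and 2.75 CPM. The treated libraries held 32, 34 and 3 counts, or 1.87, 1.85 and 0.177 CPM. A low library occurred in each group, NC 2 and implant 3, and the other 4 were close. The Poisson interval of implant 3 was 0.0365 to 0.517 CPM, below the intervals of the 4 higher libraries. Cemip had a log2 fold change of -0.46 ± 0.90 (edgeR adjusted p = 1.00), which was 0.05 ± 0.67 without implant 3 and -0.05 ± 1.04 without NC 3. The span of 15.5-fold compares with a median of 3.82-fold among 797 genes of like level that were counted in every library.

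Cd44 (ENSRNOG00000006094), the widely expressed hyaluronan receptor of leukocytes, fibroblasts and glia, read 90.2, 132 and 78.9 CPM across the NC libraries. The treated libraries gave 183, 88.6 and 107 CPM. Implant 1 was highest and NC 3 lowest, which is the reverse of the place that NC 3 takes for Has1. The group means were 100 ± 28.1 and 126 ± 49.7 CPM (SD, n = 3 each). Its log2 fold change was 0.33 ± 0.33 (edgeR adjusted p = 1.00), with a 95% interval of -0.48 to 1.13, and it was -0.02 ± 0.26 without implant 1 and 0.18 ± 0.36 without NC 3. The counts, 1092 to 3118 per library, give counting intervals much narrower than these differences, so depth does not limit this gene.

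Hmmr (ENSRNOG00000059894), also called RHAMM, binds hyaluronan at the cell surface and microtubules of the mitotic spindle. It read 1.56, 5.32 and 3.25 CPM across the NC libraries, against 5.27, 2.55 and 4.66 CPM across the treated ones. NC 2, implant 1 and implant 3 were high, and NC 1 and implant 2 low. The means were 3.38 ± 1.88 and 4.16 ± 1.42 CPM, and the log2 fold change was 0.30 ± 0.52 (edgeR adjusted p = 1.00). Without NC 1 it was -0.03 ± 0.44. Beside it, the summed level of 10 cell division markers was 34.8, 82.5 and 93.1 CPM in NC and 107, 43.5 and 82.3 CPM with the conduit, and it was lowest in the same 2 libraries. The markers were not uniform in NC 3, where Mki67 was 42.8 CPM, its highest value, and Top2a 5.57 CPM, its lowest. The part of cell division in the Hmmr differences was not tested.

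Tnfaip6 (ENSRNOG00000050792) read 17.4, 13.5 and 52.1 CPM across the NC libraries, against 20.1, 19.7 and 11.4 CPM across the treated ones. NC 3 was 3.18 times the mean of the other 5 libraries, and implant 3 was lowest. Its span of 4.58-fold compares with a median of 1.52-fold among 2625 genes of like level. The means were 27.7 ± 21.3 and 17.1 ± 4.92 CPM (SD, n = 3 each). For this gene the log2 fold change was -0.69 ± 0.55 (edgeR adjusted p = 1.00), and 0.14 ± 0.30 without NC 3. As with Has1 and Has2, the sign turned when NC 3 was left out.

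**Figure D3:**
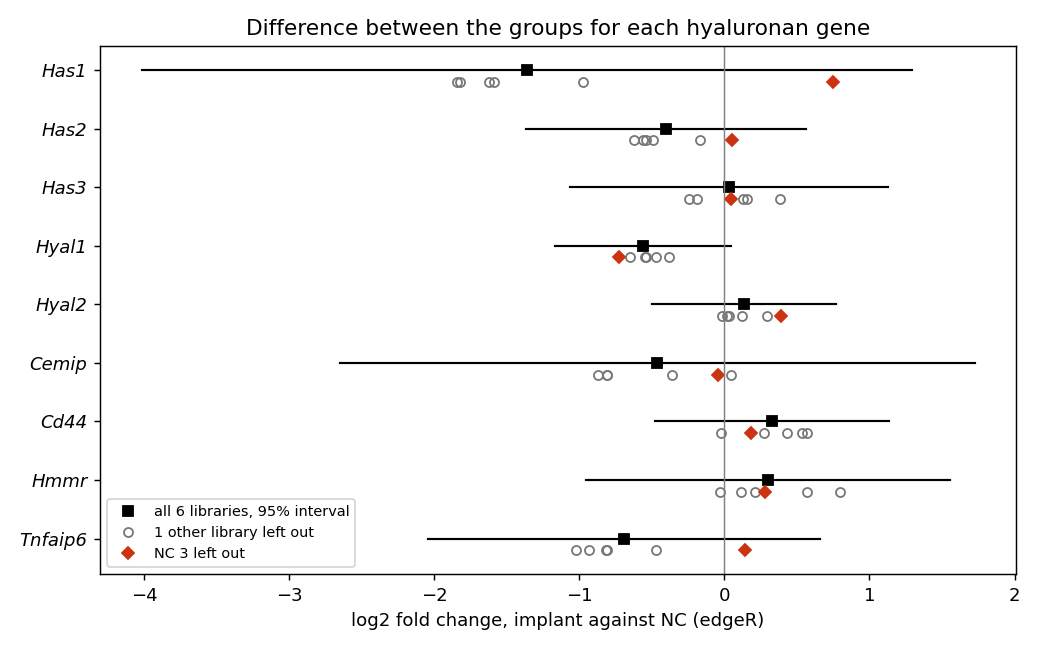
Log2 fold change (horizontal axis, implant against NC, edgeR) of each hyaluronan gene: squares with lines are the fit on all 6 libraries with its 95% interval, circles are fits without 1 other library, and red diamonds are fits without NC 3. All 9 intervals include 0, and Has1, Has2 and Tnfaip6 move from below to above 0 when NC 3 is left out.

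The members fell into distinct orders over the libraries. From highest to lowest, Has1 and Tnfaip6 had the same order of NC 3, implant 1, implant 2, NC 1, NC 2 and implant 3. Has2 differed from it only in that NC 2 lay above NC 1. Cemip had the same highest and lowest libraries. By the mean absolute difference of log2 CPM centred on each gene's mean, the closest pair of members was Has2 and Tnfaip6 (0.23 log2 units over 6 libraries). The next were Has2 with Hyal2 (0.26) and Has3 with Hmmr (0.28), and the most distant was Cemip with Hmmr (1.33). Cd44 and Hmmr shared their highest 3 libraries, namely NC 2, implant 1 and implant 3. These are descriptions over 6 libraries that share the same scaling.

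Markers of other cells moved between the same libraries. In NC 3 the summed levels of 6 adipocyte markers (7776 CPM), 6 blood endothelial markers (1547 CPM), 8 macrophage markers (1528 CPM) and 7 red cell markers (330608 CPM) were the highest of the 6 libraries. In the other NC libraries these lists stood at 1101 to 2631, 625 to 1000, 784 to 918 and 9472 to 10240 CPM. With the conduit they stood at 1428 to 2439, 933 to 1264, 826 to 1221 and 76846 to 156046 CPM. Not every marker followed its sum. Cd68, Csf1r and Aif1 of the macrophage list and Tie1 and Emcn of the endothelial list were highest in a treated library. The other markers of these lists were highest in NC 3. The 10 fibroblast markers summed to 17704 to 22728 CPM in NC and to 14290 to 21809 CPM with the conduit, and were lowest in implant 3, where Has1, Has2, Hyal1, Cemip and Tnfaip6 were also lowest. The 8 Schwann cell markers were high in NC 2 (31353 CPM), implant 3 (16264 CPM) and implant 1 (13312 CPM), and 1576 to 2622 CPM in the others, which is the split seen for Hmmr and Cd44. The 8 perineurial and endoneurial markers summed to 1115 to 3222 CPM in NC and to 1093 to 3842 CPM with the conduit. Lypd2 was at 0 in every library, and Itgb4 made up most of each sum (2602 CPM in NC 2 and 3246 CPM in implant 3). Itgb4 and Cldn1 were highest in implant 3, while the other detected markers were highest elsewhere and Osr2 was lowest in implant 3. The 6 lymphatic markers summed to 397, 676 and 557 CPM across the NC libraries, against 797, 594 and 433 CPM across the treated ones, and were highest in implant 1. They did not move together. Prox1 was highest in NC 3 (8.02 CPM) and lowest in implant 3 (0.472 CPM), while Reln was highest in NC 2 (584 CPM) and lowest in NC 3 (55.9 CPM). Skeletal muscle markers (7 of 8 in the table) ran from 26.5 to 1240 CPM in NC and from 78.3 to 7631 CPM with the conduit, and neutrophil markers (6 of 6) from 59.6 to 310 and from 254 to 370 CPM. The part of these cells in the levels of the members was not tested.

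**Figure D4:**
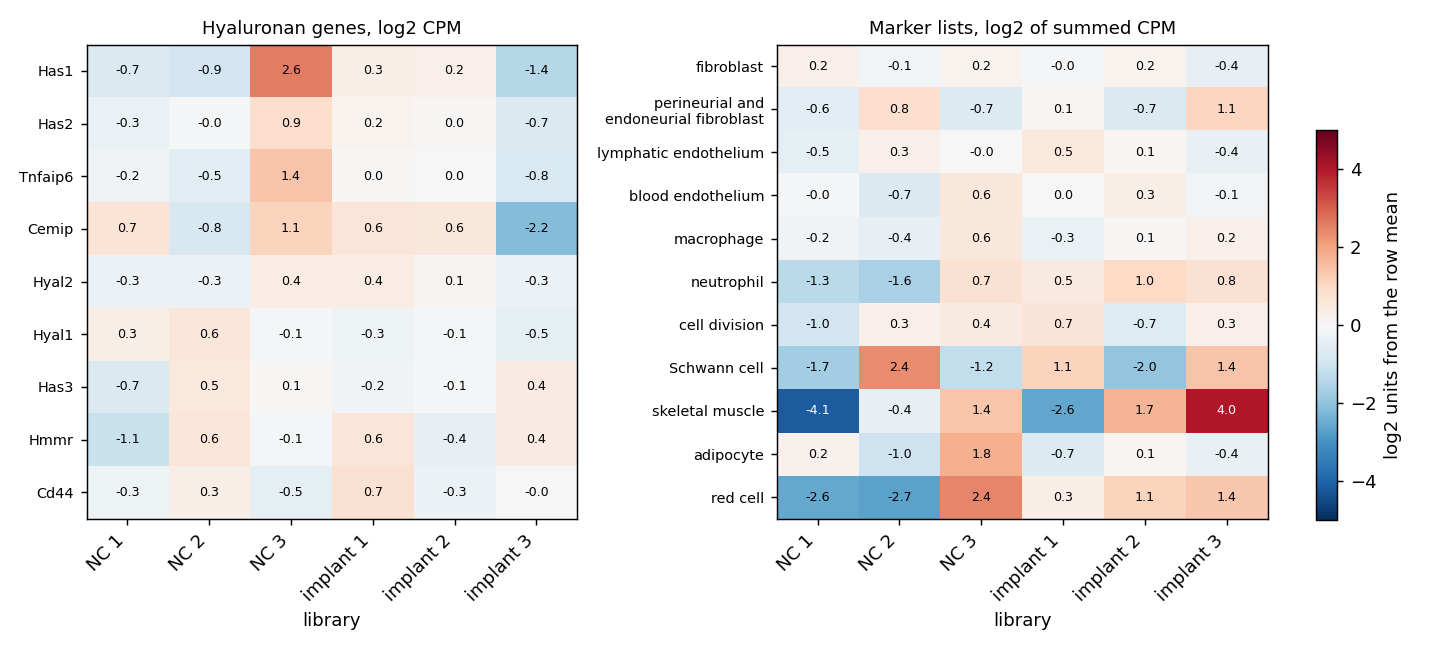
Left, log2 CPM of each hyaluronan gene, and right, log2 of the summed CPM of each marker list, as the difference from the row mean (colour and number, log2 units) in each library. NC 3 is high for Has1 (2.6), Tnfaip6 (1.4), Cemip (1.1) and Has2 (0.9) and for the adipocyte (1.8) and red cell (2.4) lists, and the Schwann cell list is high in NC 2, implant 1 and implant 3.

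The genes most like each member over the 6 libraries were sought among tested genes whose log2 CPM averaged 2 or more. For Has1 these were Apold1, Nr4a3 and Scd, at 0.26 to 0.38 log2 units of mean absolute difference. Apold1, the closest, read 22, 26 and 175 CPM across the NC libraries, against 66, 52 and 19 CPM across the treated ones. Nr4a3 is a nuclear receptor of the immediate early class. It read 4.10, 1.68 and 28.6 CPM across the NC libraries, against 6.32, 4.67 and 2.77 CPM across the treated ones. Scd read 5697 CPM in NC 3 and 565 to 1158 CPM in the other libraries. For Has2 they were the chemokine scavenging receptor Ackr3 (0.07), the mast cell carboxypeptidase Cpa3 (0.12) and Mcpt1l1 (0.13), whose reads may be shared with related proteases. Ackr3 read 62.6, 72.7 and 137 CPM across the NC libraries, against 95.4, 84.2 and 50.6 CPM across the treated ones. For Tnfaip6 they were the transcription factor Klf4, Btg2 and Star (0.17 to 0.18), and Klf4 read 50.8, 48.7 and 156 CPM across the NC libraries, against 65.6, 73.0 and 49.6 CPM across the treated ones. For Cemip, Parm1, Oas1a and Osr1 were closest (0.35 to 0.42). For Hmmr these were Galnt6, the proteoglycan Sdc4 and Racgap1, which acts in cytokinesis (0.12 to 0.13). For Cd44 the kinetochore gene Knl1 (0.06), Sema3d and Efnb1 were closest. The closest to Hyal1 were Armh4, Slc16a1 and Cep112 (0.07 to 0.12), and to Has3 they were Dhdh, Crlf2 and Pick1 (0.05 to 0.11). Hyal2 varied too little to be matched.

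The wider pathway was read from the same fit, as 49 listed genes of which 47 were in the table and 37 were tested. The edgeR test called 0 higher and 0 lower, DESeq2 and limma-voom called 0, and 1 of 37 had an unadjusted p under 0.05 (2.70%, background 1.72%). In 1 of 37 the groups did not overlap (2.70%, background 5.69%). The log2 fold change was positive for 19 and negative for 18, with a median of 0.09.

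All 10 genes that supply the sugar nucleotides were tested, with 2 positive and 8 negative and a median log2 fold change of -0.07. They include Ugdh, which makes UDP-glucuronic acid, whose mean was 81.2 ± 23.5 CPM in the NC and 76.1 ± 19.6 CPM in the treated libraries (SD, n = 3 each). By smallest unadjusted p the first 3 were Pgm3 (-0.17 ± 0.12, SE), Gpi (0.27 ± 0.24) and Gnpnat1 (-0.18 ± 0.17). Without NC 3 these were -0.17, 0.46 and -0.05. Pgm3 and Gnpnat1 act in the synthesis of UDP-N-acetylglucosamine, and Gpi in glycolysis. None of the 10 changed by the test, and the values ranged from -0.18 to 0.66.

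Among other genes of breakdown and clearance, 6 of 9 in the table were tested, 4 positive and 2 negative, with a median of 0.14. Cemip2, a transmembrane relative of Cemip, read 75.2, 69.5 and 61.0 CPM across the NC libraries, against 90.7, 94.2 and 66.8 CPM across the treated ones. Only implant 3 lay within the NC range, with a log2 fold change for the gene of 0.29 ± 0.17 (edgeR adjusted p = 1.00). Hyal3 (0.19 ± 0.21), whose deposited counts are also not whole, and the scavenger receptor Stab1 (0.17 ± 0.22) followed. Without NC 3, Hyal3 was at 0.01 and Stab1 at 0.30. The testis hyaluronidase Spam1 and Hyal4 had 0 counts in all libraries, which allows up to 3 counts in each. The clearance receptor Stab2 had 0 to 12 counts.

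Of the matrix genes that bind or crosslink hyaluronan, 9 of 16 in the table were tested, 5 positive and 4 negative, with a median of 0.26. Itih2, a heavy chain of inter-alpha-inhibitor that Tnfaip6 transfers to hyaluronan, was counted 18, 5 and 3 times across the NC libraries, against 98, 41 and 13 times across the treated ones. This was 0.935, 0.289 and 0.217 CPM against 5.74, 2.23 and 0.767 CPM, so implant 3 lay below NC 1. Its log2 fold change was 2.55 ± 0.92 (unadjusted p 0.0312, edgeR adjusted p = 1.00), and without NC 3 it was 2.22 ± 1.05. Leaving out implant 1 lowered it to 1.61 (unadjusted p 0.124), and leaving out NC 1 raised it to 3.49. Ptx3, the pentraxin that joins Tnfaip6 and these heavy chains in the hyaluronan matrix, read 4.67, 1.73 and 28.2 CPM across the NC libraries, against 2.69, 6.09 and 1.77 CPM across the treated ones. NC 3 was high for Ptx3 as it was for Tnfaip6, and the log2 fold change of -1.70 ± 1.06 became 0.12 ± 0.70 without it. Vcan, the large hyaluronan-binding proteoglycan versican, read 234, 104 and 133 CPM across the NC libraries, against 270, 271 and 138 CPM across the treated ones (0.53 ± 0.40).

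Of the other receptors and partners of Cd44, 13 of 14 were tested, 9 positive and 4 negative, with a median of 0.12. Layn, the hyaluronan receptor layilin, was the only pathway gene whose groups did not overlap. It read 3.74, 4.22 and 3.69 CPM across the NC libraries, against 5.39, 4.78 and 5.60 CPM across the treated ones. Its log2 fold change was 0.44 ± 0.20 (unadjusted p 0.0765, edgeR adjusted p = 1.00). Nf2, the merlin protein that binds the tail of Cd44 (0.18 ± 0.15), and Iqgap1 (0.12 ± 0.13) followed. Without NC 3, Nf2 was at 0.06 and Iqgap1 at 0.15. Spp1, a secreted ligand of Cd44, varied most of this list and read 14.8, 511 and 83.7 CPM across the NC libraries, against 401, 13.7 and 373 CPM across the treated ones. Its high libraries were NC 2, implant 1 and implant 3, the same 3 in which Cd44 was highest.

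**Figure D5:**
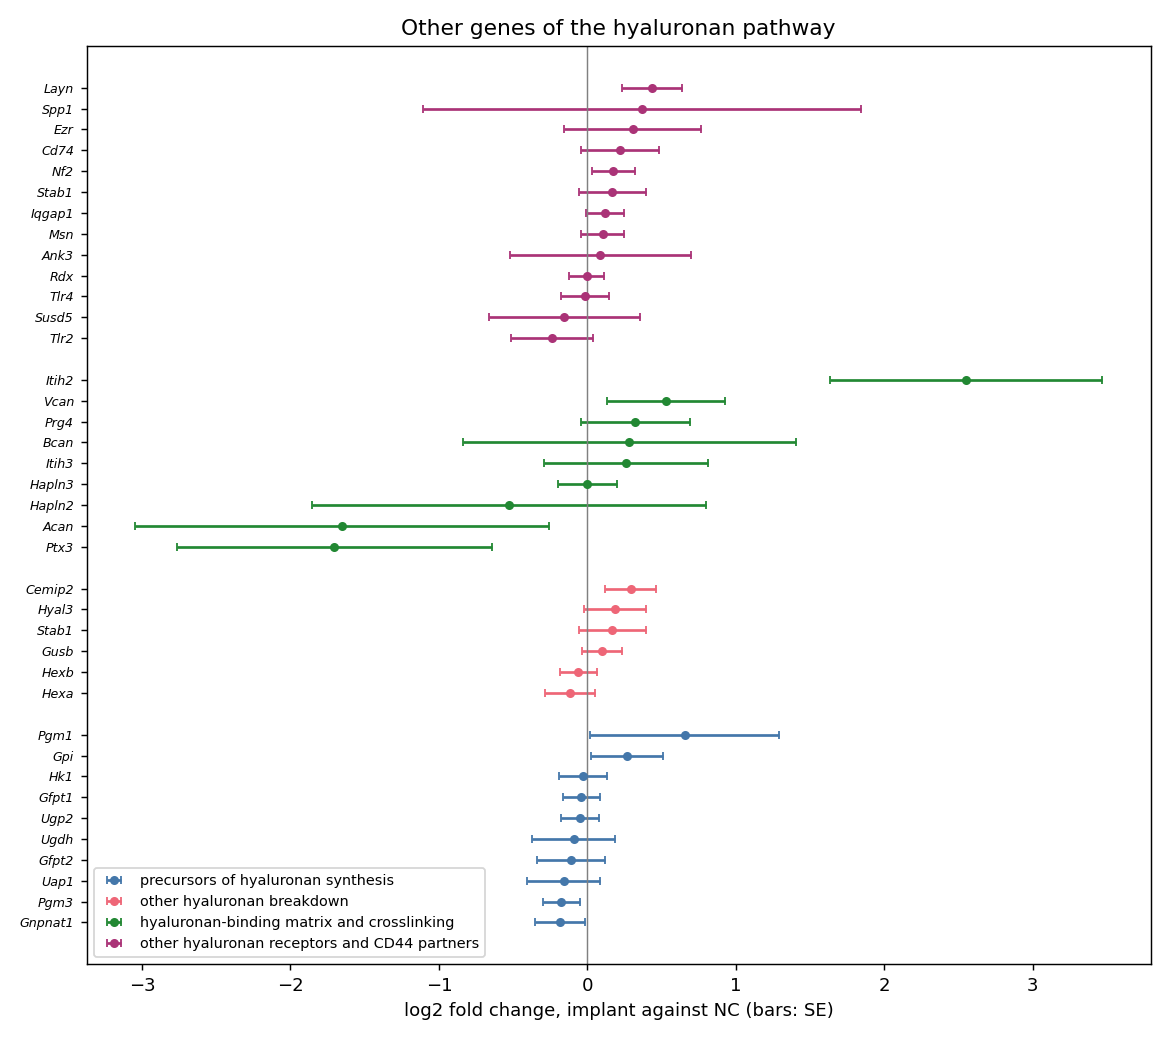
Log2 fold change (horizontal axis, implant against NC) with SE bars for the tested genes of the 4 wider lists, ordered within each list; Stab1 stands in 2 lists. Most points lie within 0.5 of 0, Itih2 is highest at 2.55, and Ptx3 and Acan are lowest.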

How the data were processed

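RNA of 6 libraries was selected with oligo(dT) beads and prepared with a NEBNext Ultra kit, per the labels' protocols; this kit does not mark strand. Per the submitters' processing notes, tools included HISAT2, DESeq2, Bowtie2 2.2.8 and StringTie 1.3.1, in roles that the notes leave out. No source used here gives the build, annotation or counter. What the authors deposited for each gene are estimated counts (also called expected counts), not normalized. Values were rounded to whole numbers. Treated columns, named without GDNF, were assigned to the only group with that material. No pair of libraries agreed within sampling noise (chi-square).

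Genes were filtered with filterByExpr (13999 left), scaled by TMM and tested with edgeR 4.0.16 under R 4.3.3, two-sided, group as the only term, with calls made at an adjusted p (Benjamini-Hochberg) under 0.05. The SE is the log2 fold change over the root of F. Log2 CPM used a prior count of 2. Genes of like level lay within 0.5 log2 units and were counted in every library, which leaves out some genes with wide spans at low levels. The test was tested on simulated data.

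Members and lists were chosen with earlier results of these data known. From each wider list the 3 genes with the smallest unadjusted p were named; Ugdh, Stab2, Spam1, Hyal4 and Spp1 were named after their values were seen. Genes most like a member were named where it spanned at least 1 log2 unit, leaving out provisional symbols. Alternatives were RLE and upper quartile scaling, DESeq2 1.42.0, limma-voom (limma 3.58.1), other filters, a replicate block, haemoglobin genes left out or as covariate, and each library left out. Figures used matplotlib 3.10.9.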

Additional observations from a re-analysis of the deposited data

How the results depend on the processing

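Over the alternatives, 0 of 9 members and 0 of 37 pathway genes were called in each fit, while the number called among all genes was 0 except in DESeq2, which called 11. Log2 fold changes were recomputed for the 9 members and the 12 pathway genes named by rule. For these, in 9 alternatives without a library left out, the sign changed for Hyal2 (-0.0564) and Stab1 (-0.00465) with haemoglobin level as a covariate. With that covariate 1341 of 13999 genes had an unadjusted p under 0.05, against 241 without it. So had 1 of 9 members, Tnfaip6 (edgeR unadjusted p 0.0248, adjusted p 0.437). Of the 12 named pathway genes, so had Ptx3 (edgeR unadjusted p 0.018), Hyal3 (0.022), Nf2 (0.024) and Itih2 (0.025). Leaving out 1 library changed the sign of a member in 9 of 54 fits. The log2 fold change then ranged from -1.84 to 0.75 for Has1, -0.62 to 0.0517 for Has2, -0.24 to 0.39 for Has3, -0.73 to -0.38 for Hyal1, -0.0182 to 0.39 for Hyal2, -0.87 to 0.0492 for Cemip, -0.0230 to 0.57 for Cd44, -0.0292 to 0.80 for Hmmr and -1.02 to 0.14 for Tnfaip6. Among the 12 named pathway genes the range crossed 0 for Ptx3 (-2.36 to 0.12) and Stab1 (-0.00247 to 0.31). For Itih2 it was 1.61 to 3.49. Low counts limit Has3, Cemip and Itih2.

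With the replicate number as a block, 0 genes were called, and Has1 had a log2 fold change of -0.28. Libraries with the same number did not deviate together (correlations over genes of 0.10, -0.72 and 0.06, after centring within each group). This cannot tell whether they share a batch, because the deviations hold every difference between libraries.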
